A study of Mus musculus with 6 samples.

Results

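The 10 genes described here encode cytokines that drive or restrain inflammation of the gut. They were chosen by name, as Tnf, Il1a, Il1b, Il1rn, Il6, Il15, Il18, Il33, Tgfb1 and Tnfsf10, with earlier results of these data known. All 10 were listed among the 24517 genes of the colon count tables, and 8 of them passed the filter on low counts and were tested. Il1a and Il6 did not pass it.

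RNA was sequenced from colon tissue of 2 groups of mice, with 3 libraries in each group, after 16 weeks of HFCD (a high-fat, high-cholesterol diet) as the labels give it. The study's text names a longer time on the diet, and which is right for these libraries was not settled. The NSD2fl/fl mice carried floxed Nsd2, the gene of a histone methyltransferase, without its deletion and served as controls. The NSD2∆IE mice had lost Nsd2 in the intestinal epithelium, through a Cre recombinase under the villin promoter per the study's methods. Other cells of the colon keep the gene in this model, and the libraries hold RNA of all of them together. No untreated or normal-diet samples are analysed here. The study's methods name male littermates on a C57BL/6J background that were young adults when the diet began, and the labels give neither sex nor age.

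Library totals lay between 38041832 and 38604680 counts. Nsd2 had 1840 to 2455 counts in NSD2fl/fl and 914 to 1139 counts in NSD2∆IE, without overlap. The libraries went against the stated sex in 1 group. Xist, which female cells express, had 0 to 4 counts in NSD2fl/fl and 21217 to 24234 counts in NSD2∆IE, and 4 Y-linked genes summed to 5058 to 6110 counts and to 0 to 1 count, in that order. The 3 NSD2∆IE libraries therefore looked female, and in every comparison below genotype and sex pattern cannot be told apart. The libraries also split in a way that the groups do not explain. The first principal component, computed without the cytokine genes, held 51% of the variance and set NSD2fl/fl replicates 1 and 3 and NSD2∆IE replicate 1 on one side against NSD2fl/fl replicate 2 and NSD2∆IE replicates 2 and 3 on the other. Hoxb13, a homeobox gene of the distal colon, had 12125 to 14052 counts in the first 3 libraries and 25 to 1086 counts in the other 3, and these are called the Hoxb13-high and Hoxb13-low libraries below. They are not labelled groups, and no test was made between them. Differences between genotypes within the Hoxb13-high libraries rest on NSD2∆IE replicate 1 alone for that genotype. Those within the Hoxb13-low libraries rest on NSD2fl/fl replicate 2 alone for the controls. Epithelial markers were abundant in every library, with a sum over 10 genes of 12700 to 21900 CPM (counts scaled by library size and TMM factors).

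Cytokines of this kind are secreted by epithelial, stromal and immune cells and act through receptors that start NF-kB, STAT or SMAD signalling. TNF and interleukin-1 (from Il1a and Il1b) start inflammation, and the receptor antagonist from Il1rn blocks interleukin-1 at its receptor. Interleukin-18 and interleukin-33 belong to the interleukin-1 family, the former made largely by epithelium and matured by caspase-1, the latter an alarmin of stromal and barrier cells. Interleukin-15 sustains intraepithelial lymphocytes, TGF-beta 1 restrains immune responses and directs matrix deposition, and Tnfsf10 encodes TRAIL, a ligand of death receptors.

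Levels between genes were compared per length, in FPKM (counts divided by gene length and library total). The lengths are those behind the deposited values, at 2805 bases for Il1rn, 2593 for Il18 and 2197 for Tgfb1. All annotated exons of these genes cover 5535, 1031 and 5042 bases in GENCODE M21, in that order. The order of genes below holds for the deposited lengths and would change with the others. Il1rn was highest, with a median of 25.7 FPKM over the 6 libraries, followed by Il18 with 19.9 FPKM. Tgfb1, Tnfsf10 and Il15 formed a middle group with medians of 7.52, 5.51 and 5.31 FPKM. Il33 followed with a median of 2.75 FPKM, Il1b with 1.19 FPKM and Tnf with 0.483 FPKM. Il1a and Il6 were lowest, with medians of 0.033 and 0.0229 FPKM. Among neighbours in this order, only Tnf and Il1a had ranges over the libraries that did not overlap. Within each library, however, Il18 stood above Tgfb1, Il15 above Il33 and Il33 above Il1b in 6 of 6 libraries, whereas Tnfsf10 stood above Il15 in 4 of 6. The antagonist gene thus had a higher level per length than either agonist gene in every library, as the plot of levels by library shows.

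**Figure D1:**
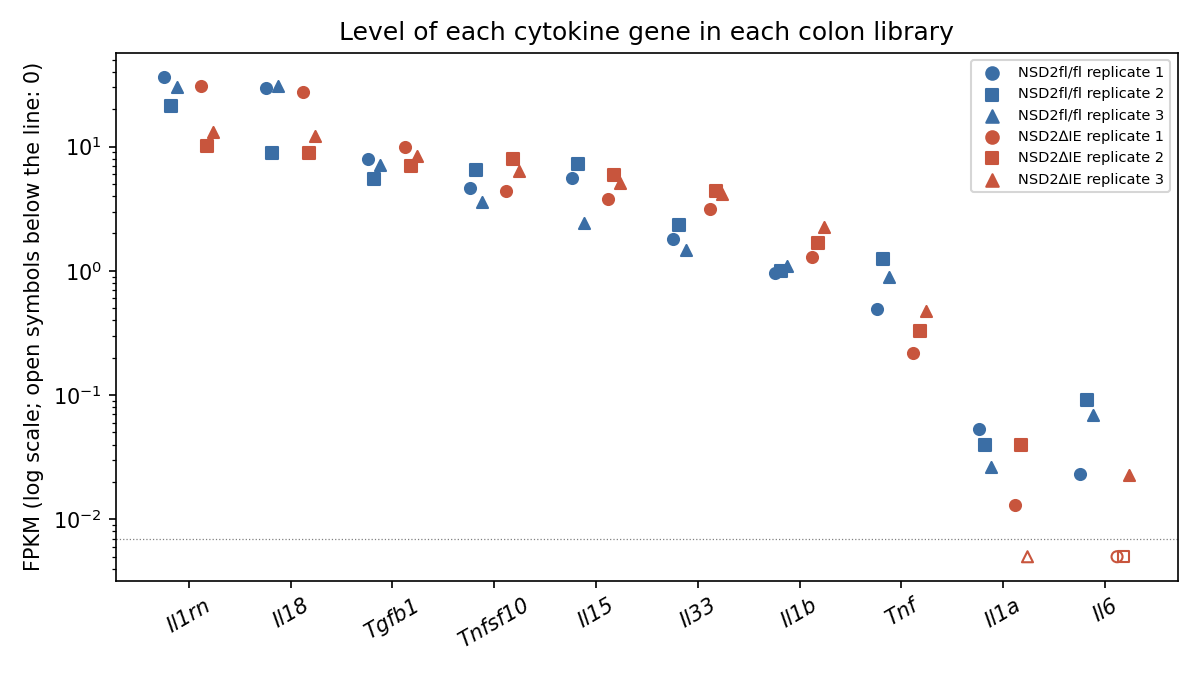
FPKM of each cytokine gene (log axis) in the 3 NSD2fl/fl (blue) and 3 NSD2∆IE (red) libraries, 1 point per library with the symbol giving the replicate, ordered by median. Il1rn and Il18 lie highest, and Il1a and Il6 lie lowest, with 3 values of 0 drawn as open symbols under the dotted line.

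To see whether the cytokine genes differed after loss of epithelial NSD2, the groups were compared in 1 fit over 16347 genes (edgeR quasi-likelihood test, two-sided, Benjamini-Hochberg adjusted). None of the 8 tested genes had an adjusted p under 0.05, against 0.0306% of all genes tested, which were Xist and the 4 Y-linked genes. At an unadjusted p under 0.05, Tnf was lower and Il33 was higher in NSD2∆IE, so 1 of 8 lay in each direction. Over all genes, 2.96% were lower and 8.15% were higher at that threshold. The groups did not overlap for Tnf, where NSD2∆IE was lower, nor for Il1b and Il33, where it was higher. Among all genes tested, 7.28% had no overlap with NSD2∆IE lower and 11.4% with NSD2∆IE higher. The median log2 fold change of the 8 genes was 0.002, beside -0.041 over all genes. With DESeq2, which called 2.91% of genes at an adjusted p under 0.05, Il33 was called too (adjusted p = 0.0302).

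**Figure D2:**
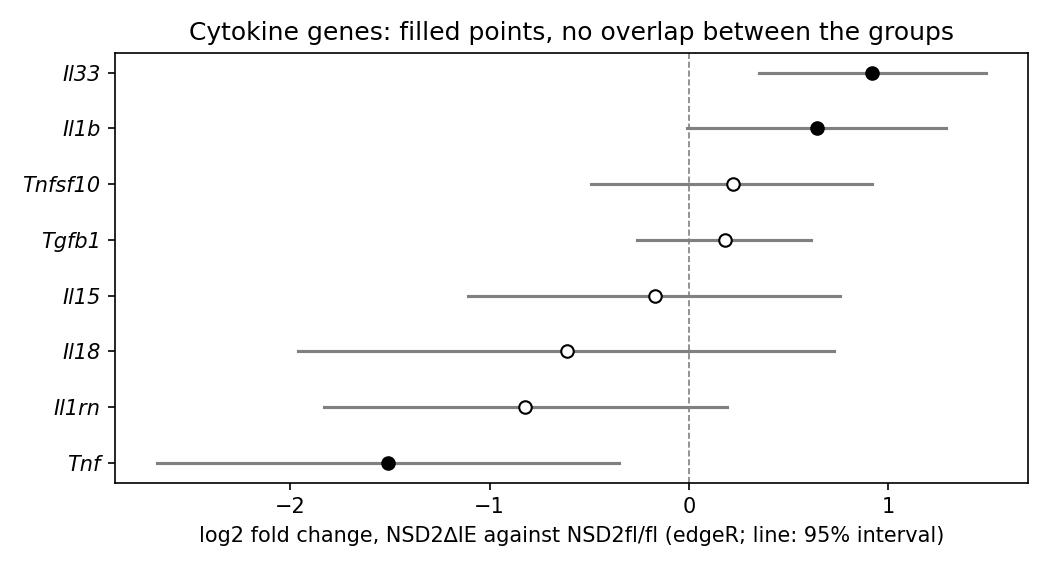
Log2 fold change of NSD2∆IE against NSD2fl/fl (x axis) for the 8 tested cytokine genes, with the 95% interval of the edgeR fit as a line. The points of Tnf at -1.51, Il1b at 0.64 and Il33 at 0.92 are filled because their groups did not overlap, and the intervals of Tnf and Il33 alone exclude 0.

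Tnf lies at chr17:35199381-35202007 on the minus strand (mm10). In replicates 1 to 3, the order kept throughout, NSD2fl/fl had 31, 79 and 56 counts of Tnf and NSD2∆IE had 14, 21 and 30. The highest NSD2∆IE library lay just under the lowest NSD2fl/fl library, at 0.723 against 0.805 CPM. The mean was 1.54 ± 0.714 CPM in NSD2fl/fl and 0.535 ± 0.185 CPM in NSD2∆IE (SD, n = 3 per group). The log2 fold change was -1.51 (SE 0.487, 95% interval -2.67 to -0.35; unadjusted p = 0.0179, adjusted p = 0.352, edgeR). Tnf was lower in NSD2∆IE among the Hoxb13-high libraries, with a log2 difference of -1.75, and among the Hoxb13-low libraries, with -1.83. The unadjusted p rose to 0.0565 without NSD2fl/fl replicate 2, to 0.0569 without NSD2∆IE replicate 1 and to 0.0502 without NSD2∆IE replicate 2. In a tissue sample, fewer cells of a type and less RNA per cell cannot be told apart, here or below. Macrophages are a main source of TNF. Of 10 macrophage markers, 0 passed an unadjusted p of 0.05, and their sum was 606 to 905 CPM in NSD2fl/fl and 713 to 891 CPM in NSD2∆IE. T and NK cell markers summed to 25.2 to 69.6 CPM and 30 to 65.7 CPM, in that order, with 0 of 8 past that threshold. Mast cell markers were scarce, at 2.83 to 10.1 CPM and 2.12 to 6.66 CPM, with 4 of 4 tested markers fitted below 0. B and plasma cell markers summed to 1260 to 2410 CPM and 1040 to 1510 CPM, in that order. Of these, 6 of 6 were fitted below 0 and 0 passed that threshold. Macrophage markers were fitted below 0 in 4 of 10 cases, and T and NK cell markers in 1 of 8. The part of these cells in the level of Tnf was not tested.

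The TNF receptors were measured at much higher depth than their ligand. Tnfrsf1a, the widely expressed receptor, had 2601 to 3197 counts in NSD2fl/fl and 3117 to 3342 counts in NSD2∆IE, with a log2 fold change of 0.04 (95% interval -0.26 to 0.34). Tnfrsf1b, the receptor found mainly on immune and endothelial cells, was at 45, 46.3 and 61.6 CPM in NSD2fl/fl and at 43.2, 39.9 and 42.5 CPM in NSD2∆IE. Its groups did not overlap, but the log2 fold change of -0.28 had a 95% interval of -0.63 to 0.06 (unadjusted p = 0.0907, adjusted p = 0.527, edgeR). The genes whose pattern over the 6 libraries was most like that of Tnf, among 13278 genes of sufficient level, were Atp13a1, Cldnd1 and Kdelr2, with Pearson's r of log2 CPM of 0.991, 0.989 and 0.987. These values were picked as the highest among 13278 genes over 6 libraries that share the split above, so they are a description only. The log2 fold changes of Atp13a1, Cldnd1 and Kdelr2 were small, at -0.17, -0.13 and -0.18.

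The study also used PCR, for Il1b and Il6 in colon and liver and for Tnf in liver. It reported that the knockout lessened the diet-induced rise of proinflammatory cytokine mRNA in colon. In the libraries analysed here Il1b was fitted higher in NSD2∆IE (unadjusted p = 0.0514, edgeR), as given below. Il6 had 1 to 4 counts in NSD2fl/fl and 0 to 1 count in NSD2∆IE. Cxcr2, which that PCR also read in colon, had 1 to 5 and 0 to 2 counts, in that order. Both summed to fewer counts in NSD2∆IE, at levels too low for a comparison. The PCR used more samples per group than the libraries, and the study's text names a longer time on the diet. The study's primers show which stretch of each transcript that assay reads. They are shown to set the stretch read by PCR beside the gene length behind the deposited values. Each was matched here to the transcripts of GENCODE M21 (mm10).
Tnf forward: ccctcacactcagatcatcttct
Tnf reverse: gctacgacgtgggctacag
Il1b forward: gaaatgccaccttttgacagtg
Il1b reverse: tggatgctctcatcaggacag
Il6 forward: ccaagaggtgagtgcttccc
Il6 reverse: ctgttgttcagactctctccct
The Tnf pair spans exons 2 to 4 of a transcript of 1639 bases and gives a product of 61 bases. The Il1b pair likewise spans exons 2 to 4, in a transcript of 1356 bases, with a product of 116 bases. The Il6 pair matched 1 of 4 annotated transcripts, of 2343 bases, and its product of 118 bases lies inside exon 4 of that transcript (chr5:30018148-30018265). Only 7 of those 118 bases fall in exons of the first-listed Il6 transcript, which has 1141 bases. The gene length implied by the deposited count and FPKM of Il6 is also 1141 bases.

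Il6, at chr5:30013114-30019981 on the plus strand, encodes the cytokine that signals through gp130 and STAT3. It had 1, 4 and 3 counts in NSD2fl/fl and 0, 0 and 1 count in NSD2∆IE. Il1a, at chr2:129299610-129309972 on the minus strand, had 4, 3 and 2 counts in NSD2fl/fl and 1, 3 and 0 counts in NSD2∆IE. A count of 0 allows up to 3 counts, or 0.0777 to 0.0789 CPM before TMM scaling, so all but the 2 values of 4 counts lie at or under that limit. A difference between the groups was not detectable at this depth for either gene. Without the filter on low counts the unadjusted p was 0.0557 for Il6 and 0.268 for Il1a, with adjusted p-values of 0.584 and 0.682 (edgeR). Il1a shares 222 exon bases with Gm14023 on the opposite strand, and whether the counting used strand is not given in the sources used here. The receptor chains of interleukin-6 both passed the filter. Il6ra had 431 to 585 counts in NSD2fl/fl and 353 to 516 counts in NSD2∆IE, with a log2 fold change of -0.37 (95% interval -0.86 to 0.12). Il6st, which encodes gp130, was at 114, 95.1 and 101 CPM in NSD2fl/fl and at 133, 128 and 147 CPM in NSD2∆IE. Every NSD2∆IE library thus lay above every control, by 0.39 on the log2 scale (SE 0.117, unadjusted p = 0.0128, adjusted p = 0.323, edgeR).

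The promoter of Il6 is shown because its window holds the most motif matches among the 9 genes with a window, although its transcript was near 0. Windows of 250 bases before the start were taken from RefSeq (GRCm38.p6) for 9 of the 10 genes, in 12 windows since Il1rn and Il33 have several starts. Capitals mark, from left to right, an AP-1 motif (TGANTCA), a C/EBP motif (TTGCNNAA) and an NF-kB consensus. The window is chr5:30012864-30013113 (plus strand).
Il6: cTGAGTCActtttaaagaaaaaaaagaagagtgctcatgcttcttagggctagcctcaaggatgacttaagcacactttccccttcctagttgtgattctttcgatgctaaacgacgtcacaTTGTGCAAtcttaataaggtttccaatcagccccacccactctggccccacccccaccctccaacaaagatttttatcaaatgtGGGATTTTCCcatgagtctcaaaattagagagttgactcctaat
The matches begin 249, 128 and 44 bases before the start. Over 32851 windows of the same length, 6.75% held the AP-1 motif, 9.56% the C/EBP motif and 7.25% the NF-kB consensus, each searched on both strands. Among the 12 windows of the cytokine genes, 3 held the AP-1 motif (Il6, Il1a and Il1rn), 2 the NF-kB consensus (Il6 and Tgfb1) and 2 the C/EBP motif (Il6 and Il33). A match is a run of letters and not a shown binding site.

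Il1b, at chr2:129364570-129371139 on the minus strand, was higher in every NSD2∆IE library. It had 69, 72 and 78 counts in NSD2fl/fl and 94, 122 and 164 counts in NSD2∆IE. The NSD2fl/fl libraries lay close together, at 2.01 ± 0.201 CPM, and the NSD2∆IE libraries were spread more widely, at 3.13 ± 0.792 CPM (SD, n = 3 per group). This came to a log2 fold change of 0.64 (SE 0.273, 95% interval -0.01 to 1.29; unadjusted p = 0.0514, adjusted p = 0.452, edgeR). The log2 difference was 0.25 among the Hoxb13-high libraries and 0.79 among the Hoxb13-low libraries. Without NSD2∆IE replicate 3, the highest library, the log2 fold change was 0.44. Il1b shares 25 exon bases with the antisense gene Il1bos, so reads of the pair could not be told apart without strand. Neutrophils and macrophages are known sources of interleukin-1β. The macrophage markers are given above. Of the neutrophil markers, S100a8, S100a9, Cxcr2 and Mmp8 had at most 8, 9, 5 and 2 counts in any library, and the list summed to 39 to 193 CPM in NSD2fl/fl and 7.39 to 117 CPM in NSD2∆IE, with Ly6g ranging from 33 to 6624 counts.

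Il1rn, at chr2:24336853-24351494 on the plus strand, had 3875, 2275 and 3220 counts in NSD2fl/fl and 3303, 1099 and 1397 counts in NSD2∆IE. In CPM these were 101, 64.3 and 90.4 against 83.3, 27.7 and 33.7. NSD2∆IE replicate 1 lay within the NSD2fl/fl range, and the other two NSD2∆IE libraries lay below it. Il1rn had a fitted log2 fold change of -0.82 (SE 0.425, 95% interval -1.83 to 0.19; unadjusted p = 0.0968, adjusted p = 0.537, edgeR). Without NSD2∆IE replicate 1 the log2 fold change was -1.47 and the unadjusted p 0.000882 (adjusted p = 0.223). That library was the only Hoxb13-high library of its group, so in that fit genotype and the split partly coincided. Within the Hoxb13-high libraries the log2 difference was -0.2, and within the Hoxb13-low libraries it was -1.07. With the side of the first component as a covariate the unadjusted p was 0.0161 (log2 fold change -0.63, adjusted p = 0.318).

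Since the antagonist and its agonist compete for 1 receptor, their ratio was taken within each library, where scaling between libraries has no part. The ratio of Il1rn to Il1b in FPKM was 37.8, 21.3 and 27.8 in NSD2fl/fl and 23.7, 6.06 and 5.73 in NSD2∆IE. NSD2∆IE replicates 2 and 3 lay below every control, whereas NSD2∆IE replicate 1 lay above NSD2fl/fl replicate 2. On the log2 scale the mean was 4.82 ± 0.415 in NSD2fl/fl and 3.23 ± 1.16 in NSD2∆IE (SD, n = 3 per group). The difference of -1.59 gave p = 0.2 in a two-sided exact permutation test over 20 splits, where the smallest p that 3 against 3 allows is 0.1. The antagonist exceeded Il1b per length in 6 of 6 libraries, the lowest ratio included.

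**Figure D3:**
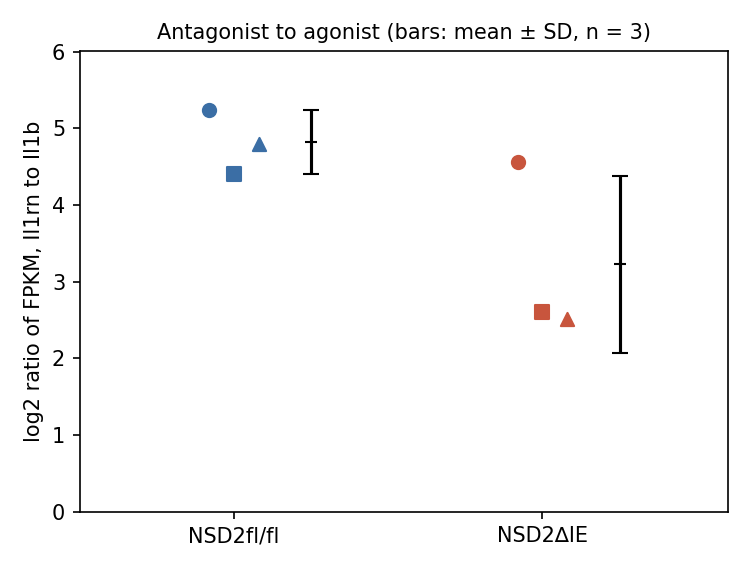
Log2 ratio of the FPKM of Il1rn to that of Il1b in each library (points, symbol by replicate) with the mean and SD beside them, n = 3 per group. The 3 NSD2fl/fl libraries lie between 4.41 and 5.24, and the NSD2∆IE libraries lie at 4.56, 2.6 and 2.52.

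The receptors that both proteins meet varied less. Il1r1, the signalling receptor, was at 29.9, 24.8 and 23.2 CPM in NSD2fl/fl and 24.8, 27.5 and 28.9 CPM in NSD2∆IE (log2 fold change 0.06, 95% interval -0.27 to 0.39). Il1rap, the accessory chain shared with the interleukin-33 receptor, had a log2 fold change of 0.06 (95% interval -0.42 to 0.54). Il1r2, a decoy, was scarce, with 19 to 25 counts in NSD2fl/fl and 24 to 37 counts in NSD2∆IE (log2 fold change 0.4, 95% interval -0.42 to 1.22). Intervals of this width leave room for a change of either sign.

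Il33, at chr19:29925114-29960718 on the plus strand, was the cytokine gene with the smallest p. It had 205, 269 and 167 counts in NSD2fl/fl and 363, 502 and 478 counts in NSD2∆IE. Every NSD2∆IE library lay above every NSD2fl/fl library, the closest being 9.16 against 7.6 CPM. The level was 5.87 ± 1.53 CPM in NSD2fl/fl and 11.1 ± 1.79 CPM in NSD2∆IE (SD, n = 3 per group). In the fit, Il33 differed by 0.92 on the log2 scale (SE 0.239, 95% interval 0.35 to 1.49; unadjusted p = 0.00662, adjusted p = 0.303, edgeR). It differed by 0.87 among the Hoxb13-high libraries and 0.67 among the Hoxb13-low libraries. The unadjusted p stayed under 0.05 in 16 of 16 alternatives, with log2 fold changes of 0.77 to 1.15 and adjusted p-values of 0.0302 to 0.99.

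Markers of stromal cells are given beside Il33, since some of them were higher in NSD2∆IE as well. Smooth muscle markers summed to 1340 to 3880 CPM in NSD2fl/fl and 4830 to 10400 CPM in NSD2∆IE, and 5 of 6 were higher at an unadjusted p under 0.05. Fibroblast markers summed to 831 to 920 CPM and 970 to 1160 CPM, in that order, with 3 of 6 higher (Dcn, Lum and Dpt, with log2 fold changes of 0.43, 1.08 and 0.74). The other fibroblast markers, Pdgfra, Col1a1 and Col1a2, had log2 fold changes of -0.09, -0.11 and 0.04. Endothelial markers summed to 131 to 168 CPM and 148 to 177 CPM, with 1 of 6 higher. Adipocyte markers, with Adipoq at 0 to 78 counts in NSD2fl/fl and 102 to 427 counts in NSD2∆IE, summed to 0.0565 to 5.05 CPM and 8.91 to 29.1 CPM, with 1 of 3 tested markers higher. Their part in the level of Il33 was not tested. The genes most like Il33 over the 6 libraries were Marchf2, Mdk and Pex5l, with Pearson's r of 0.996, 0.995 and 0.994, and Mdk, which encodes the growth factor midkine, had a log2 fold change of 1.24. These r values too were picked as the highest among 13278 genes and are a description only.

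Il33 has a start upstream and a start inside the gene, and both windows are shown because the counts do not separate them. Capitals mark the C/EBP motif TTGCNNAA, found in the inner window only and beginning 85 bases before its start. The windows are chr19:29924863-29925112 (plus strand) and chr19:29945540-29945789 (plus strand), GRCm38.p6.
Il33 upstream: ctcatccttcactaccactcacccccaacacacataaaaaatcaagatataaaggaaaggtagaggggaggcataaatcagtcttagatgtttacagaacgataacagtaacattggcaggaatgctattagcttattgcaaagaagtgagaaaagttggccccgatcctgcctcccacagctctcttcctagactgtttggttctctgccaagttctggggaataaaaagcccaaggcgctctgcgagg
Il33 inner: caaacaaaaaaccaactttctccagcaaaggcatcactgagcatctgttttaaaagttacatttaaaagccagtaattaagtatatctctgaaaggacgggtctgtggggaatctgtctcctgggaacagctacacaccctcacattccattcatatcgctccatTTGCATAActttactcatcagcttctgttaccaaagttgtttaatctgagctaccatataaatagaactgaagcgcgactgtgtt
The receptor of interleukin-33, ST2 from Il1rl1, is carried by lymphoid, mast and stromal cells. Il1rl1 was at 2.8, 22.7 and 27.7 CPM in NSD2fl/fl and at 3.66, 6.99 and 8.6 CPM in NSD2∆IE. NSD2fl/fl replicate 1 was the lowest of all libraries, and the other two controls were the highest. The log2 fold change of -1.47 had an interval from -3.28 to 0.35 (unadjusted p = 0.0969, adjusted p = 0.537, edgeR), so the sign is not fixed by these libraries.

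Il18, at chr9:50554827-50581840 on the plus strand, followed the split of the libraries and not the groups. It had 2908, 889 and 3033 counts in NSD2fl/fl and 2767, 886 and 1216 counts in NSD2∆IE. The 3 Hoxb13-high libraries held 2767 to 3033 counts and the 3 Hoxb13-low libraries 886 to 1216 counts, a ratio of mean CPM of 3. Within the Hoxb13-high libraries the log2 difference between the genotypes was -0.2, and within the Hoxb13-low libraries it was 0.04. The comparison of the groups gave 61.9 ± 32.2 CPM in NSD2fl/fl and 40.5 ± 25.6 CPM in NSD2∆IE (SD, n = 3 per group). The fitted change was -0.61 on the log2 scale (95% interval -1.96 to 0.73, adjusted p = 0.722), and -0.083 with the side of the first component as a covariate. Leaving out NSD2fl/fl replicate 2 gave -0.99 and leaving out NSD2∆IE replicate 1 gave -1.26, and these are the libraries that sat apart from the rest of their groups.

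Il1rn and Tnfsf10 also did not overlap between the sides. Il1rn was 2.18-fold higher in the Hoxb13-high libraries, at 83.3 to 101 CPM against 27.7 to 64.3 CPM. Tnfsf10 was 1.64-fold higher in the Hoxb13-low libraries, at 29.2 to 38.6 CPM against 19 to 22.6 CPM. With Il18, 3 of the 8 tested cytokine genes thus had no overlap between the sides, beside 22.4% of the other genes. The sides were drawn from the same libraries, so these values are a description. T and NK cell markers summed to 25.2 to 32 CPM in the Hoxb13-high and 57.6 to 69.6 CPM in the Hoxb13-low libraries. Neutrophil markers summed to 117 to 193 CPM and 7.39 to 39 CPM, in that order. Ly6g alone ranged from 0.833 to 186 CPM over all libraries, so the neutrophil sum mostly follows that gene. The part of these cells in the levels of Il18, Il1rn and Tnfsf10 was not tested. The window before the Il18 start, chr9:50554450-50554699 (plus strand), GRCm38.p6, and that of Tnfsf10, chr3:27316827-27317076 (plus strand), are shown because these genes were opposite in order between the sides. Neither window held any of the motifs searched.
Il18: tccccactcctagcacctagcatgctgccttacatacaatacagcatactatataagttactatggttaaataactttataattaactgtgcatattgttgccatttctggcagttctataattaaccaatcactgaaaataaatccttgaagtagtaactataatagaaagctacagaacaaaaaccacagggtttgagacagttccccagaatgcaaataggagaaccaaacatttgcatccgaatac
Tnfsf10: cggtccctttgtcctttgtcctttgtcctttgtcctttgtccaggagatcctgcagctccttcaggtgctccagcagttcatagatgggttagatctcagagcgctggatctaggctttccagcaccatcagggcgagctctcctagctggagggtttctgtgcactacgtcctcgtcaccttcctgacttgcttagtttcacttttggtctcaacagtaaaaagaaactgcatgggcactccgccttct
The plot of levels along the first component shows the 3 genes beside Hoxb13.

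**Figure D4:**
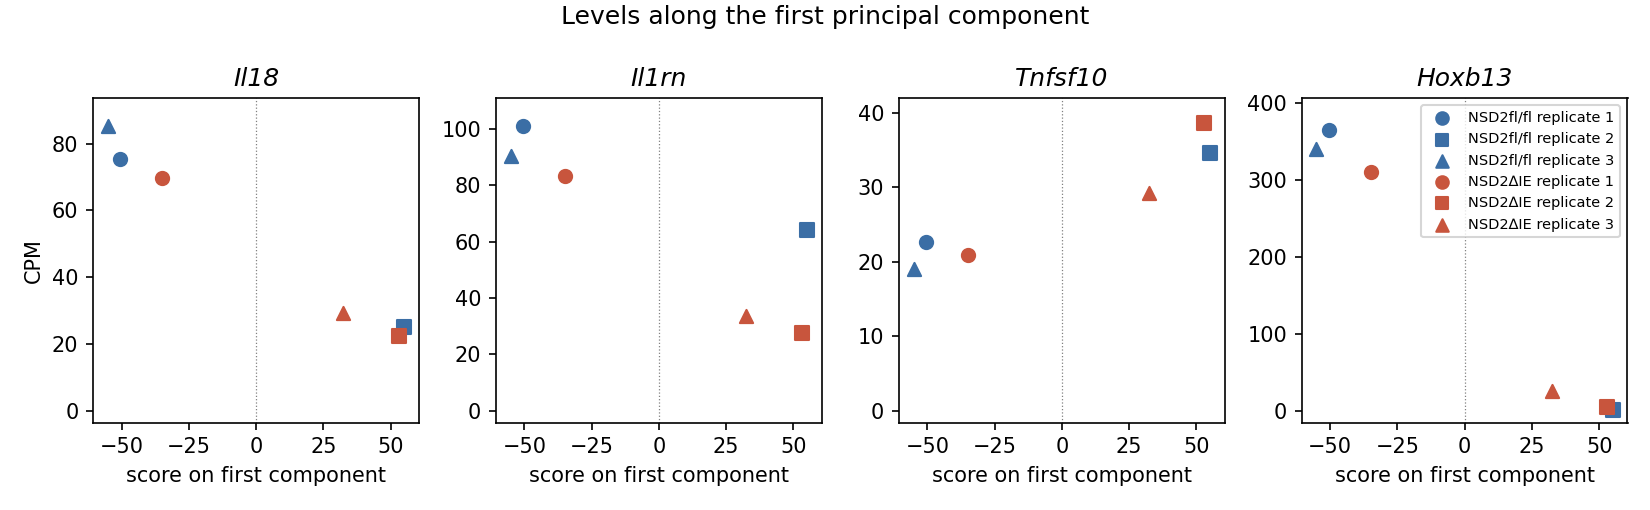
CPM of Il18, Il1rn, Tnfsf10 and Hoxb13 (y axes, linear) against the score on the first principal component (x axis), 1 point per library, blue for NSD2fl/fl and red for NSD2∆IE. Il18 and Il1rn are high on the left, where Hoxb13 has 310 to 365 CPM, and Tnfsf10 is high on the right, where Hoxb13 has at most 26.2 CPM.

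The partners of interleukin-18 included abundant and scarce transcripts. Casp1, which encodes the protease that matures interleukin-18 and interleukin-1β, had 5422 to 6611 counts in NSD2fl/fl and 5200 to 7380 counts in NSD2∆IE (log2 fold change -0.06, 95% interval -0.46 to 0.34). Nlrp3, an inflammasome sensor, had only 12 to 22 and 30 to 35 counts, in that order, without overlap (log2 fold change 0.66, 95% interval -0.21 to 1.53, unadjusted p = 0.114, edgeR). Il18bp, a soluble inhibitor, was at 7.69, 14.6 and 11.8 CPM in NSD2fl/fl and at 4.79, 12.5 and 11 CPM in NSD2∆IE. It had a log2 fold change of -0.27 (95% interval -1.21 to 0.67). The receptor chains Il18r1 and Il18rap had at most 118 and 85 counts. Their log2 fold changes of 0.55 and 0.92 had 95% intervals of -0.19 to 1.29 and -0.11 to 1.95.

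For Il15, Tgfb1 and Tnfsf10 the groups overlapped and the intervals included 0. Il15, at chr8:82331632-82403222 on the minus strand, had 594, 784 and 259 counts in NSD2fl/fl and 412, 644 and 546 counts in NSD2∆IE. NSD2fl/fl replicate 3 was low and replicate 2 high, so the controls spanned the whole NSD2∆IE range. The log2 fold change was -0.17 (95% interval -1.11 to 0.76, adjusted p = 0.89), but it was above 0 in both FPKM fits and without NSD2fl/fl replicate 2. The receptor chains of interleukin-15 had log2 fold changes of -0.05 for Il15ra, 0.15 for Il2rb and -0.13 for Il2rg, each with an interval that included 0.

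Tgfb1, at chr7:25687002-25705077 on the plus strand, varied least of the tested cytokine genes, with 660, 463 and 598 counts in NSD2fl/fl and 837, 591 and 710 counts in NSD2∆IE. Its highest library held 1.61 times the CPM of its lowest. The log2 fold change was 0.18 (SE 0.184, 95% interval -0.26 to 0.61, adjusted p = 0.749), and it was 0.32 and 0.29 within the Hoxb13-high and Hoxb13-low libraries. Tnfsf10, at chr3:27317028-27342427 on the plus strand, had 872, 1226 and 675 counts in NSD2fl/fl and 828, 1528 and 1211 counts in NSD2∆IE. Its log2 fold change was 0.22 (SE 0.295, 95% interval -0.49 to 0.92, adjusted p = 0.81), and 0.01 and -0.03 within the Hoxb13-high and Hoxb13-low libraries. It fell below 0, at -0.013 with the side as a covariate and at -0.021 without NSD2∆IE replicate 2. Tnfrsf10b, the mouse receptor of TRAIL, had 201 to 309 counts in NSD2fl/fl and 213 to 310 counts in NSD2∆IE (log2 fold change -0.11, 95% interval -0.64 to 0.42).

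The wider pathways were read from lists of receptors, inhibitors, processing enzymes, signalling and target genes, and further cytokines. Of 130 listed genes, 114 were tested, of which 6 were lower and 11 were higher at an unadjusted p under 0.05 (2.96% and 8.15% of all genes), and 0 had an adjusted p under 0.05 (edgeR). Their median log2 fold change was -0.087, beside -0.041 over all genes. The 16 genes that did not pass the filter were all further cytokines, among them Il10, Il17a, Il22, Il23a and Ifng, and none had more than 27 counts in a library. Without the filter, 0 of these were lower and 2 were higher at an unadjusted p under 0.05, namely Il25 and Il21, named after their values were seen. Il25, an epithelial cytokine of tuft cells, had 3 counts in every NSD2fl/fl library and 8 to 18 counts in NSD2∆IE (unadjusted p = 0.0155, adjusted p = 0.44, edgeR). Il21 had 0 counts in every NSD2fl/fl library and at most 3 counts in NSD2∆IE, so no fold is given.

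Among 16 receptor genes, 0 were lower and 2 were higher, namely Il6st and Tgfbr3. Tgfbr3, a co-receptor of TGF-beta, was at 41.3, 35.4 and 30.5 CPM in NSD2fl/fl and 47.5, 55.8 and 48.6 CPM in NSD2∆IE (log2 fold change 0.5, SE 0.142, adjusted p = 0.312). The signalling receptors Tgfbr1 and Tgfbr2 had log2 fold changes of -0.01 and 0.01, with intervals of -0.3 to 0.27 and -0.27 to 0.28. Among 12 decoys and inhibitors, Tnfrsf11b alone passed the unadjusted threshold. This gene encodes osteoprotegerin, a decoy of TRAIL and RANKL, and had 65, 91 and 88 counts in NSD2fl/fl and 126, 150 and 179 counts in NSD2∆IE (log2 fold change 0.74, SE 0.263, unadjusted p = 0.0263, adjusted p = 0.382). Tnfaip3 and Nfkbia, feedback inhibitors of NF-kB, had log2 fold changes of -0.58 and -0.06 with overlapping groups.

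Of 19 processing and release genes, 4 were lower and 2 were higher. Aim2, an inflammasome sensor of DNA, had 2199, 1970 and 2083 counts in NSD2fl/fl and 1866, 1450 and 1525 counts in NSD2∆IE (log2 fold change -0.51, SE 0.128, adjusted p = 0.303). Adam17, the protease that releases TNF from the membrane, had 2268, 1937 and 2220 counts in NSD2fl/fl and 1792, 1833 and 1826 counts in NSD2∆IE (log2 fold change -0.38, SE 0.0966, adjusted p = 0.303). Neither gene overlapped between the groups, but both were named for their small p in the same libraries. The other two lower genes, named after their values were seen, were Nlrp1b at -0.57, whose paralogs could share reads, and Itgb6 at -0.56. Both higher genes encode latent TGF-beta binding proteins. Ltbp1 was at 33.5, 27.1 and 27.6 CPM in NSD2fl/fl and at 42.1, 46.9 and 44.6 CPM in NSD2∆IE (log2 fold change 0.6, SE 0.123, adjusted p = 0.302). Ltbp3 was higher by 0.56 on the log2 scale (SE 0.205, adjusted p = 0.394). Matrix proteins of this kind are made by stromal cells, of whose markers 5 of 6 for smooth muscle and 3 of 6 for fibroblasts were higher in NSD2∆IE, and the part of those cells here was not tested.

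The 22 signal genes of NF-kB and STAT3 were fitted below 0 in 19 cases, with a median of -0.167, beside 9202 of 16347 genes and a median of -0.041 over all genes. Of these genes, 8 were lower and 1 was higher without overlap between the groups, beside 7.28% and 11.4% of all genes. Only Stat3 was lower and Traf1 higher at an unadjusted p under 0.05. Epithelial markers were fitted below 0 in 9 of 10 cases, with a median of -0.28 and 0 past that threshold, although Epcam, Cdh1 and Cdx1 were lower without overlap between the groups, and their part in the signal genes was not tested. Stat3 was at 156, 177 and 170 CPM in NSD2fl/fl and 144, 131 and 132 CPM in NSD2∆IE (log2 fold change -0.31, SE 0.108, adjusted p = 0.382), and its log2 fold change was -0.18 with library totals alone (unadjusted p = 0.117, edgeR). Traf1, an adaptor of TNF receptors that NF-kB itself induces, was at 8.52, 10.6 and 8.12 CPM and at 11.3, 14.9 and 12.8 CPM, in that order (log2 fold change 0.52, SE 0.18, adjusted p = 0.378). Of 15 target genes, 0 were lower and 2 were higher, but 4 were lower with the replicate number as a block, 3 with the side of the first component as a covariate, and 3, 2 and 1 without NSD2∆IE replicate 1, NSD2fl/fl replicate 1 and NSD2fl/fl replicate 2. Ptgs2, which encodes the inducible cyclooxygenase, had 138, 115 and 61 counts in NSD2fl/fl and 216, 213 and 403 counts in NSD2∆IE (log2 fold change 1.26, SE 0.374, adjusted p = 0.321). Ier3, an immediate early gene, had 231, 262 and 207 counts and 338, 335 and 587 counts, in that order (log2 fold change 0.7, SE 0.254, adjusted p = 0.396). Without NSD2∆IE replicate 3, its highest library, the log2 fold change of Ier3 was 0.41 (unadjusted p = 0.11, edgeR). Reg3b, an antimicrobial lectin gene, varied most widely of the targets named here. It ranged from 3 to 231689 counts in NSD2fl/fl and from 1 to 46397 counts in NSD2∆IE, and its log2 fold change of -2.19 had a 95% interval of -9.52 to 5.15. Lcn2, a marker of colitis, had 124 to 174 and 153 to 182 counts, in that order (log2 fold change 0.03, 95% interval -0.5 to 0.57).

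Of 9 TGF-beta target genes, 7 were fitted above 0, beside 7145 of 16347 genes. Their median log2 fold change was 0.203, beside -0.041 over all genes, and Postn alone passed the unadjusted threshold. Postn encodes periostin, a matrix protein of stromal cells, and was at 319, 253 and 238 CPM in NSD2fl/fl and 339, 356 and 391 CPM in NSD2∆IE (log2 fold change 0.42, SE 0.155, adjusted p = 0.399). Smooth muscle markers were fitted above 0 in 6 of 6 cases and fibroblast markers in 4 of 6. The part of stromal cells in the TGF-beta target genes was not tested. Among 21 tested further cytokines, 1 was lower and 2 were higher. Il11, a gp130 cytokine of stromal cells, had 20, 27 and 22 counts in NSD2fl/fl and 10, 15 and 12 counts in NSD2∆IE (log2 fold change -1.04, SE 0.379, adjusted p = 0.397). Tnfsf12, which encodes TWEAK, had 170, 106 and 141 counts and 250, 280 and 255 counts, in that order (log2 fold change 0.78, SE 0.212, adjusted p = 0.312). Tgfb3, a relative of Tgfb1, had 457, 308 and 384 counts and 507, 547 and 747 counts (log2 fold change 0.51, SE 0.196, adjusted p = 0.42). None of these 3 genes overlapped between the groups, but they were named for their small p in the same libraries. Over all genes, 7.28% had no overlap with NSD2∆IE lower and 11.4% with NSD2∆IE higher. The plot of pathway genes sets all 15 genes named by p side by side.

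**Figure D5:**
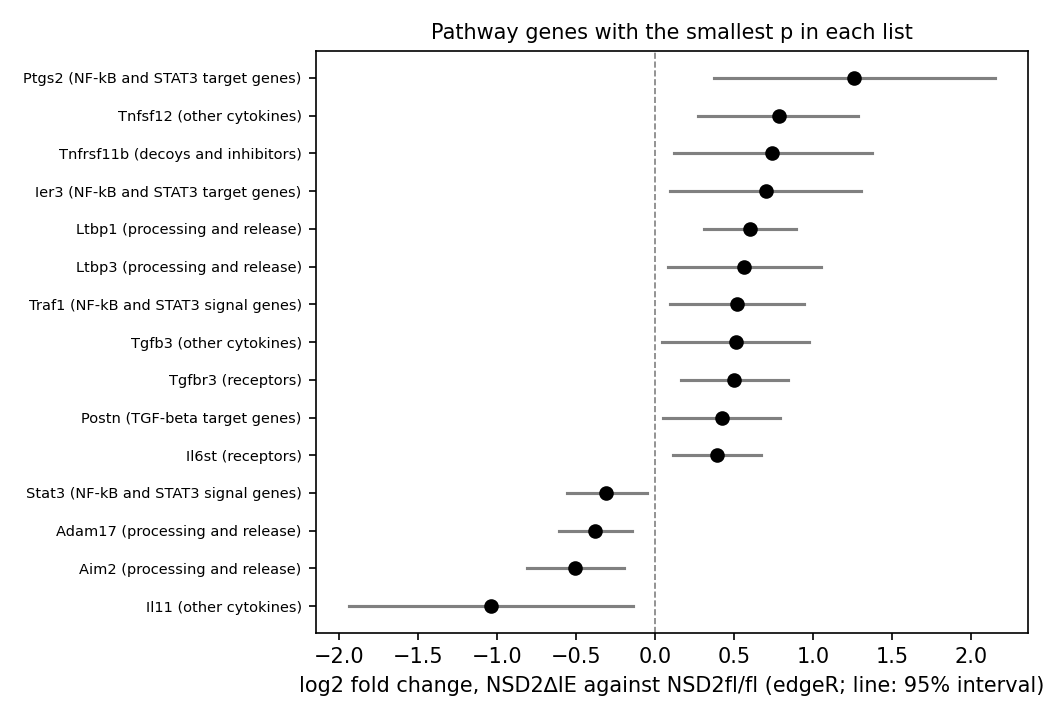
Log2 fold change of NSD2∆IE against NSD2fl/fl (x axis) with the 95% interval of the edgeR fit, for the 15 pathway genes with the smallest p in their list and direction (list in parentheses). The 4 genes below 0 are Stat3, Adam17, Aim2 and Il11, and the other 11 lie above 0, up to Ptgs2 at 1.26.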

How the data were processed

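The labels gave each library its group and replicate number. The 6 libraries, which differed by far more than sampling noise in all 15 pairs, were kept as separate samples. Nothing used here says that each came from a separate animal, so p-values measure the spread between samples, which may be partly technical. The authors deposited a whole-number read count and an FPKM value per gene symbol for each library. Per the submitters' processing notes, fastp, HISAT2, HTSeq, R 3.2.0 and mm10 were used, and the annotation and the use of strand are not given in the sources used here. FPKM followed from the count, the library total and a fixed gene length.

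The count fit used edgeR 4.0.16 under R 4.3.3 (filterByExpr, TMM factors, quasi-likelihood test, Benjamini-Hochberg over 16347 genes), after a check on simulated counts. The SE was taken from the fold change and its F statistic. Log2 CPM used a prior count of 2. Alternatives were RLE, upper-quartile and no factors, DESeq2 1.42.0, limma 3.58.1 (voom, log2(FPKM + 1) and log2(FPKM + 0.1)), no filter, a replicate block, the side of the first component as a covariate, and leaving out each library. Similar totals give all libraries like counting precision, and floors cover counting error only. The genes and lists were chosen with earlier results of these data known. Named pathway genes are, per list and direction, the 2 with the smallest p under 0.05, and receptors of the cytokines. The 3 most alike genes were ranked among those with an average log2 CPM of at least 1. Positions are from GENCODE M21 (mm10) and promoter windows from RefSeq (GRCm38.p6).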

Additional observations from a re-analysis of the deposited data

How the results depend on the processing

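Directions held in 16 of 16 alternatives for Tnf, Il1b, Il1rn, Il18, Il33 and Tgfb1. Without 1 library, Il15 ranged from -0.49 to 0.22 and Tnfsf10 from -0.021 to 0.5. Il15 turned to 0.04 with log2(FPKM + 1), 0.069 with log2(FPKM + 0.1) and 0.22 without NSD2fl/fl replicate 2, and Tnfsf10 to -0.013 with the first component as a covariate and -0.021 without NSD2∆IE replicate 2. Of the 15 named pathway genes, which were picked by their p, 5 kept an unadjusted p under 0.05 in 16 of 16 alternatives (Tgfbr3, Aim2, Ltbp1, Ptgs2 and Tnfsf12) and 10 lost it in at least 1. Stat3 lost it in 7, Il11 in 6, Ltbp3 and Tgfb3 in 5, Traf1 and Postn in 4, Tnfrsf11b and Ier3 in 3, Adam17 in 2 and Il6st in 1. Of the cytokine genes, 1 was lower at an unadjusted p under 0.05. This became 2 with DESeq2, 2 with the replicate block and 2 with the covariate, in each case with Il1rn added, and 0 to 1 in fits that left out a library. Without NSD2∆IE replicate 1 the gene counted was Il1rn and not Tnf (unadjusted p = 0.000882 and 0.0569, edgeR). The number higher, 1, was 2 with upper-quartile factors, library totals alone, DESeq2, log2(FPKM + 1) and log2(FPKM + 0.1), with Il1b added, and 1 to 2 in fits that left out a library. At an adjusted p under 0.05 DESeq2 called 1 (Il33), against 0. DESeq2 also called Aim2 (-0.51, adjusted p = 0.046), Ltbp1 (0.6), Ptgs2 (1.27) and Tnfsf12 (0.78).

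Of the pathway genes, 6 were lower. Both FPKM fits gave 2, the replicate block 12 and the covariate 16. Fits without 1 library gave 3 to 12, the lowest without NSD2∆IE replicate 3 and the highest without NSD2fl/fl replicate 1. Those higher, 11, were 17 with log2(FPKM + 1) and 4 to 13 without 1 library, lowest without NSD2∆IE replicate 3. The ratio of Il1rn to Il1b had a log2 difference of -2.26 to -1.23 without 1 library, the former without NSD2∆IE replicate 1. The causes were not tested. Libraries with the same number had correlated deviations of 0.501, 0.643 and -0.166, which gives no pairing by number. Over all genes, the median fitted change was -0.041 with TMM and 0.086 with library totals alone. Low counts limit Il1a, Il6 and the other genes with few counts, such as Il11, Il1r2, Nlrp3 and the cytokines that did not pass the filter.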
